A study of Mus musculus with 6 samples.

Results

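Transcript levels of 10 heat shock and chaperone genes were examined in mouse embryonic stem cells (mESCs) after depletion of RNA polymerase II (Pol II). The genes were Hspa1a, Hspa1b, Hspa8, Hsp90aa1, Hsp90ab1, Hspb1, Dnajb1, Hsph1, Hspd1 and Hspe1. They were taken by symbol from the 39017 genes of the count tables, and each of the 10 was found once and was tested in every comparison. The polyA RNA-seq data held 6 libraries, 2 from each of 3 groups of V6.5 mESCs, a line derived from the inner cell mass. Untreated cells were a Pol II degron line, in which RPB1 (encoded by Polr2a, the largest Pol II subunit) carries a mAID degron tag and a green fluorescent protein, and the plant F-box protein Tir1 is expressed from Rosa26 under a doxycycline-inducible promoter. Both degron groups received doxycycline at 1 μg/ml for 12 h, so the cells called untreated were untreated with auxin only. Auxin-treated cells were the same line given auxin (indole-3-acetic acid, IAA) at 500 μM over 6 h, through which Tir1 marks tagged RPB1 for proteasomal destruction. Wild-type cells were V6.5 mESCs with untagged Pol II, for which a doxycycline treatment is not stated. The degron line is a single clone, and all cells were grown with irradiated mouse embryonic fibroblasts and passaged before harvest.

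Heat shock proteins are molecular chaperones that bind unfolded polypeptides, and their families are named by mass. HSP70 proteins bind short hydrophobic stretches in a cycle driven by ATP, J-domain proteins start that cycle, HSP110 proteins exchange the nucleotide, and HSP90 acts later on kinases, receptors and other clients. HSP60 and HSP10 form the folding chamber of the mitochondrial matrix, and small heat shock proteins hold unfolded protein without ATP. Some of these genes are transcribed constitutively. Others are induced within minutes by heat shock factor 1 (HSF1), which binds heat shock elements, arrays of the 3-base unit GAA in alternating orientation, and releases Pol II paused near the start site. The questions addressed here were how the mRNAs of this family stood after auxin, and how the tagged line stood against wild-type cells.

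The promoters of the inducible HSP70 pair are shown because both genes had their highest levels after auxin, although only Hspa1b was called higher than in untreated cells. Those of Hspb1, Hspe1 and Hspd1 are shown because exact heat shock element units are arranged differently in them. Sequences are from RefSeq (GRCm38.p6), 5′ to 3′ on the strand of the gene, and capitals mark the 3-base units of the 2-unit motifs GAANNTTC and TTCNNGAA. The first 3 end at the base before the start site, and the last is the 30-base stretch around the motifs between Hspe1 and Hspd1, read on the Hspe1 strand.
Hspa1a: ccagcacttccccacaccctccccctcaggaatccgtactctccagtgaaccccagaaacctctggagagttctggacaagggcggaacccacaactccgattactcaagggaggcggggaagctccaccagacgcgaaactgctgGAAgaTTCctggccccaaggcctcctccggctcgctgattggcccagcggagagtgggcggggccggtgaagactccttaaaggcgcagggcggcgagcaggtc
Hspa1b: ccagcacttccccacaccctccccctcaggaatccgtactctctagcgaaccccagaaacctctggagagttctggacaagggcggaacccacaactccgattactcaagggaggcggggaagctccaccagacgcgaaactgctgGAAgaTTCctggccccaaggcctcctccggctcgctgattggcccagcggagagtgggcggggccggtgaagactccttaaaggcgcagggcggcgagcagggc
Hspb1: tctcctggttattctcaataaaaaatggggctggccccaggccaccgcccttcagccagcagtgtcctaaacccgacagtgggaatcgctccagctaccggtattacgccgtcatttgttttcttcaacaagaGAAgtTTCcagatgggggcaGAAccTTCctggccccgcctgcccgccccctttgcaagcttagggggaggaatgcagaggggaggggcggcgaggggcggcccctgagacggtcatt
Hspe1/Hspd1: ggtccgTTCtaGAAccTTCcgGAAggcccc
These stretches lie at chr17:34972157-34972406 (minus strand), chr17:34959239-34959488 (minus strand), chr5:135887669-135887918 (plus strand) and chr1:55088053-55088082 (plus strand), respectively.

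Both motifs read the same on either strand, and in a longer array they overlap by sharing a unit. RefSeq windows of 300 bases (250 before the start site) were matched by symbol for 7 of the 10 genes, and a 2-unit motif was present in 6 of these 7. GAANNTTC was present in 7.86% and TTCNNGAA in 8.52% of all 32851 promoter windows of the same length, and either motif in 15.1%. The windows of Hspa1a and Hspa1b were identical at 98.7% of 300 bases, with 4 differing, and each held a single GAANNTTC beginning 104 bases before the start. The Hspb1 window held 2 GAANNTTC matches, beginning 117 and 97 bases before the start. Hspe1 and Hspd1 are transcribed away from each other, with 216 bases between the Hspe1 start and 1 of 2 annotated Hspd1 starts, and share a run of 4 alternating units that begins 89 bases before the Hspe1 start. The other Hspd1 start lies 95 bases inside Hspe1, and its window held neither motif. Arrays of at least 3 units were found in the Hspe1 window, in 1 of 2 Hspd1 windows and in both Hsph1 windows, against 0.603% of all windows. In Hsph1 such an array began 36 or 15 bases after the start, depending on which of 2 annotated starts was used. Neither Dnajb1 window held a 2-unit motif. Only exact units were searched for, so arrays with a mismatched unit were not counted, and a window without a match may still hold one. A match describes the sequence only, and binding of HSF1 was not measured here.

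**Figure D1:**
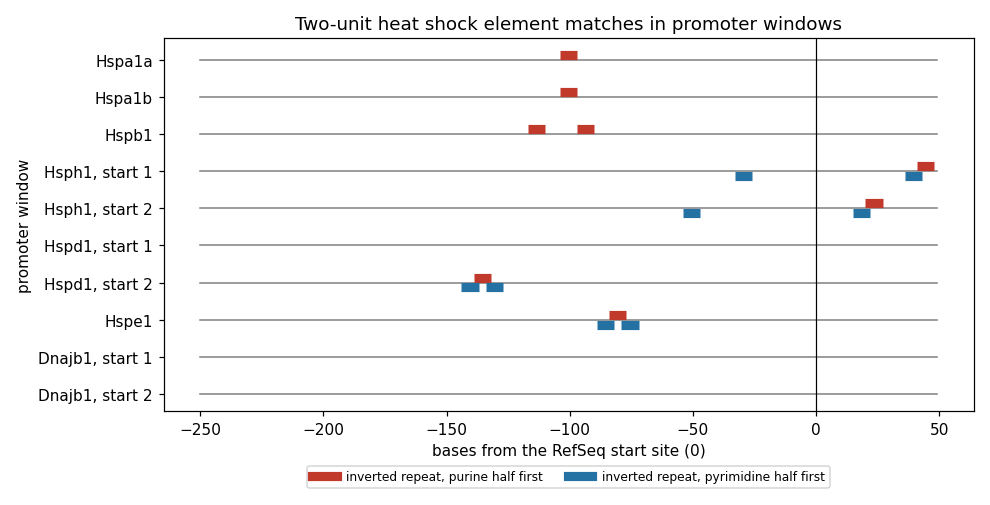
Positions of the 2-unit heat shock element motifs in RefSeq promoter windows, with the horizontal axis in bases from the start site and one row per annotated start. Red bars mark the repeat with the purine unit first and blue bars the repeat with the pyrimidine unit first. Overlapping red and blue bars in the Hspe1 row, both Hsph1 rows and the row of the second Hspd1 start are arrays of 3 or more units, and the row of the first Hspd1 start and both Dnajb1 rows hold none.

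Total counts ranged from 14094022 to 15358714 per library. The 10 genes held 1.22% and 1.22% of all counts in the untreated libraries, 1.17% and 1.15% after auxin, and 1.52% and 1.503% in wild-type. Group means were 1.22% ± 0.00603 (untreated), 1.16% ± 0.0163 (auxin-treated) and 1.51% ± 0.0118 (wild-type; SD, n = 2). With 2 libraries a side no exact 2-sided permutation test can go below p = 0.333, so the shares are given without a test. The HSP90 pair, Hsp90aa1 and Hsp90ab1, supplied 74.0% to 78.3% of the counts of the 10 genes in each library. Hspa8 supplied 13.3% and 12.8% in untreated cells, 10.8% and 10.4% after auxin, and 14.2% and 14.1% in wild-type. The inducible HSP70 pair supplied between 0.0628% and 0.211%.

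Per exonic length, levels spread over nearly 3 orders of magnitude. In untreated cells the order of mean RPKM (counts scaled by exonic length and library size, n = 2) was Hsp90ab1 (1579 ± 76.2), Hsp90aa1 (1137 ± 9.29), Hspa8 (368.5 ± 6.66), Hspb1 (320.4 ± 25.5), Hspe1 (218.7 ± 0.373), Hspd1 (190.7 ± 2.77), Dnajb1 (20.6 ± 0.758), Hsph1 (12.3 ± 1.32), Hspa1b (2.62 ± 0.236) and Hspa1a (1.97 ± 0.696). The libraries of each gene lay clear of those of the next except for the neighbours Hspa1b and Hspa1a. The order differed in the other groups. After auxin Hspb1 (348.3 ± 4.22) stood above Hspa8 (276.6 ± 8.24), and in wild-type Hspd1 (322.1 ± 0.783) stood above both Hspb1 (314.6 ± 0.480) and Hspe1 (287.1 ± 0.670). These levels rank mRNA only, and reads from near-identical gene copies limit some of them. Between 26.9% and 56.5% of the 100-base stretches of Hspa1a, Hspa1b, Hspa8, Hsp90aa1, Hspb1 and Hspd1 occur in another annotated gene or pseudogene. For Hsp90ab1, Dnajb1 and Hsph1 this share was 0 and for Hspe1 0.347%.

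**Figure D2:**
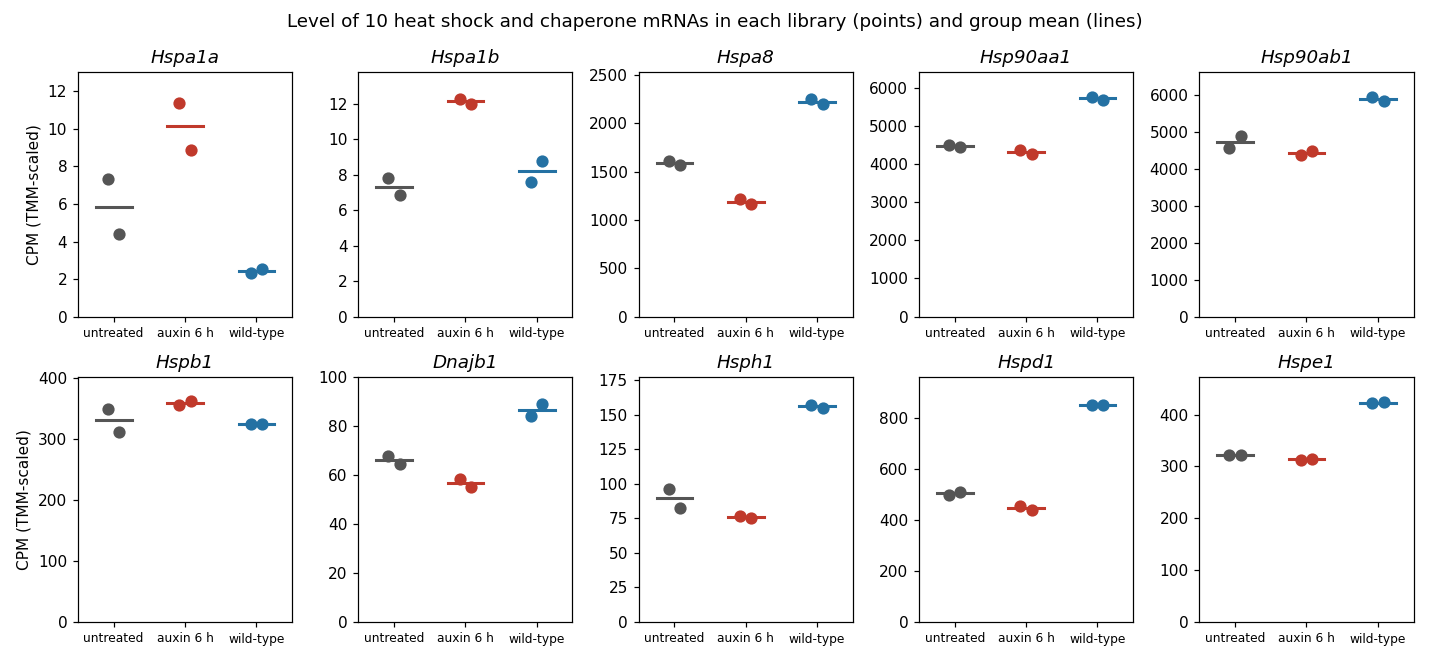
Level of each of the 10 mRNAs in every library, in CPM (counts scaled to a common library size with TMM factors over all 6 libraries), with points for the 2 libraries of each group and a line for their mean. Hspa1a, Hspa1b and Hspb1 are highest after auxin, with only Hspa1b called higher than in untreated cells. Hspa8, both HSP90 genes, Dnajb1, Hsph1, Hspd1 and Hspe1 are lowest after auxin and highest in wild-type. Of these only Hspa8 was called lower after auxin than in untreated cells. Each axis starts at 0.

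After 6 h of auxin, 2 of the 10 genes passed the test against untreated cells, Hspa1b higher and Hspa8 lower, and 0 reached a log2 fold change of 1 in size, which 1.53% of all genes did with a call. Across all genes 4.2% were called (677 of 16128), 2.56% higher and 1.64% lower. The median log2 fold change of the 10 genes was -0.05, against 0 for all genes tested. Calls are from edgeR's quasi-likelihood test at a Benjamini-Hochberg adjusted p under 0.05, and the fold changes are relative to the other mRNAs of a library, so a loss of mRNA per cell shared by most genes would not be seen. The study's methods call the replicates of its sequencing experiments biological, but neither they nor the labels say that the libraries of a group are separate cultures, and p-values measure the spread between these libraries.

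Polr2a, the gene whose protein was targeted, gave 461 and 451 CPM in untreated, 651 and 687 CPM in auxin-treated and 483 and 497 CPM in wild-type libraries. Its mRNA rose by 0.57 ± 0.071 on the log2 scale (SE; adjusted p = 0.00117) after auxin. Because auxin removes protein, mRNA counts cannot show how far RPB1 was depleted.

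Hspa1a and Hspa1b encode the stress-inducible cytosolic HSP70 and lie side by side on chromosome 17 as genes of 1 exon each (mm10, chr17:34969190-34972156 and chr17:34956436-34959238, both minus strand). Hspa1a had 105 and 64 counts in untreated cells, 182 and 138 after auxin, and 33 and 36 in wild-type, or 7.32 and 4.40, 11.4 and 8.90, and 2.32 and 2.51 CPM. The 3 groups did not overlap, and the untreated libraries differed from each other more than those of either other group relative to their mean. The log2 fold change of auxin over untreated was 0.81 ± 0.22 (SE, 95% interval 0.34 to 1.29) and did not pass the adjusted threshold (adjusted p = 0.0578, edgeR). With all 3 groups in 1 fit it did, at a like size (log2 0.80, adjusted p = 0.0351). It did not under DESeq2 (adjusted p = 0.129), without a filter on low counts (0.215) or with mitochondrial scaling (log2 0.635, adjusted p = 0.238). The log2 fold change lay between 0.49 and 1.22 when each library was left out.

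Hspa1b had 112 and 100 counts in untreated cells, 196 and 186 after auxin, and 108 and 126 in wild-type, or 7.80 and 6.87, 12.3 and 12.0, and 7.60 and 8.79 CPM. Both auxin-treated libraries lay above all 4 others, whereas untreated and wild-type libraries overlapped. Hspa1b rose 1.68-fold after auxin (log2 0.74 ± 0.15, 95% interval 0.42 to 1.07, adjusted p = 0.0162, edgeR). The call was lost without auxin replicate 1 (adjusted p = 0.133), without auxin replicate 2 (0.102), under DESeq2 (0.0546), without a filter on low counts (0.0832) and with scaling to mitochondrial mRNAs (0.295), with a log2 fold change between 0.57 and 0.76 in these fits.

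The pair shares long identical stretches, 47.1% of Hspa1a and 49.9% of Hspa1b in 100-base windows, so how reads were divided between the copies is uncertain. Counts summed over both genes do not depend on that division. Reads dropped as shared, or shared with genes outside the pair, would still affect the sum. The summed counts were higher after auxin (log2 0.78 ± 0.14, adjusted p = 0.0093, edgeR). This call was lost without auxin replicate 1 (log2 0.68, adjusted p = 0.0772), without the filter (adjusted p = 0.105) and with mitochondrial scaling (log2 0.60, adjusted p = 0.181). Hspa1l, a testis-type HSP70 gene 547 bases from Hspa1a on the other strand, had 2 and 6 counts in untreated, 15 and 19 in auxin-treated and 5 and 10 in wild-type libraries (auxin over untreated, adjusted p = 0.062). Gm20481, annotated across 2225 bases of Hspa1a on the opposite strand, had 0 counts in all 6 libraries. The sources used here do not say whether counting was by strand, so Hspa1a reads in those bases are uncertain. Reads left out there would lower the Hspa1a counts, and the 0 counts of Gm20481 do not show otherwise.

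Hspa8 encodes HSC70, the constitutive HSP70 that folds new proteins and uncoats clathrin vesicles (chr9:40800984-40810087, plus strand, 9 exons). It had 1605 and 1564 CPM in untreated cells, 1215 and 1165 CPM after auxin, and 2248 and 2198 CPM in wild-type. No groups overlapped. It fell to 0.761-fold after auxin (log2 -0.39 ± 0.079, 95% interval -0.56 to -0.22, adjusted p = 0.0149, edgeR). The call was lost without auxin replicate 1 (adjusted p = 0.242), without auxin replicate 2 (0.384) and without the filter on low counts (0.0534), while the log2 fold change was -0.43, -0.36 and -0.42 in these fits. The snoRNA genes Snord14c, Snord14d and Snord14e, which lie inside Hspa8, had 0 counts throughout. The ratio of Hspa8 counts to those of the inducible pair was 106 and 139 in untreated cells, 51.3 and 55.8 after auxin, and 226 and 195 in wild-type.

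The HSP90 genes were not called after auxin. Hsp90aa1, the more stress-responsive cytosolic HSP90 (chr12:110690605-110702728, minus strand), had 4496 and 4444 CPM in untreated and 4364 and 4254 CPM in auxin-treated cells (log2 -0.03, 95% interval -0.23 to 0.16, adjusted p = 0.882). Hsp90ab1, the constitutive form (chr17:45567775-45573271, minus strand), had 4574 and 4898 CPM in untreated and 4383 and 4498 CPM in auxin-treated cells (log2 -0.07, 95% interval -0.27 to 0.12, adjusted p = 0.717). Both intervals lie within a change of 0.828-fold to 1.12-fold. The ratio of Hsp90ab1 to Hsp90aa1 counts lay between 1.0 and 1.1 in all 6 libraries.

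The J-domain protein gene Dnajb1, which encodes HSP40 and is a classical HSF1 target (chr8:83608193-83612653, plus strand), had 67.8 and 64.4 CPM in untreated and 58.3 and 54.9 CPM in auxin-treated cells. Hsph1, encoding the HSP110 exchange factor HSP105 (chr5:149614287-149636376, minus strand), had 96.0 and 82.5 CPM in untreated and 76.2 and 75.3 CPM in auxin-treated cells. For each of these genes the auxin-treated libraries lay below the untreated ones, yet neither passed the adjusted threshold. The log2 fold change was -0.20 ± 0.075 for Dnajb1 (adjusted p = 0.146) and -0.22 ± 0.080 for Hsph1 (adjusted p = 0.147). Without untreated replicate 2, Hsph1 was called lower (log2 -0.33, adjusted p = 0.00131). Hspb1, the small heat shock protein HSP25 (chr5:135887919-135889563, plus strand), had 349 and 312 CPM in untreated and 356 and 362 CPM in auxin-treated cells. Its log2 fold change was 0.14 (95% interval -0.02 to 0.30, adjusted p = 0.318), and it turned to -0.04 with mitochondrial scaling.

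The mitochondrial chaperonin genes lie head to head on chromosome 1, and their annotations overlap by 112 bases on opposite strands, with Hspd1 at chr1:55077835-55088243 (minus strand) and Hspe1 at chr1:55088132-55091307 (plus strand). Whether reads were counted by strand is not given in the sources used here, so reads in those bases are uncertain. Hspd1, encoding HSP60, had 499 and 509 CPM in untreated and 455 and 440 CPM in auxin-treated cells (log2 -0.15 ± 0.070, adjusted p = 0.243). Hspe1, encoding HSP10, had 322 and 323 CPM in untreated and 313 and 314 CPM in auxin-treated cells (log2 -0.02 ± 0.066, adjusted p = 0.905). The ratio of Hspd1 to Hspe1 counts was 1.55 and 1.58 in untreated and 1.45 and 1.40 in auxin-treated cells, against 2.02 and 2 in wild-type.

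The number of these genes called after auxin depended on single libraries, and so did the number of all genes called. Without untreated replicate 1 the log2 fold change was 1.22 for Hspa1a, 0.22 for Hspb1, -0.13 for Hsp90ab1 and -0.17 for Hspd1. Without untreated replicate 2 it was 0.49 for Hspa1a, 0.06 for Hspb1 and -0.03 for Hsp90ab1. The untreated pair also differed most in all counts, with a chi-square per degree of freedom of 5.72 against 2.31 for auxin-treated and 2.60 for wild-type libraries. In these fits the group left with 1 library was assumed to vary like the other.

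Wild-type cells differed from the untreated degron line at 8 of the 10 genes, 7 higher and 1 lower. The background was large, since 60.6% of all genes were called (9555 of 15778), 29.9% higher and 30.7% lower. The median log2 fold change of the 10 genes was 0.37, against -0.01 for all genes. Only Hspa1a exceeded a log2 fold change of 1 in size, a threshold that 18.1% of all genes passed with a call. Wild-type libraries are held in a separate table from the degron libraries, so genotype cannot be told apart from preparation, doxycycline and any other difference between the 2 sets. When libraries were scaled to the 13 mitochondrial mRNAs, the median of all genes became -2.10 and all 10 genes were called lower in wild-type, whereas relative to that median 8 of the 10 stood above it, as under the other 4 scalings. Of all calls 49.3% were higher in wild-type under the TMM scaling and 0.477% under the mitochondrial one.

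Markers bear on what the 2 sets of cells held. Summed, 10 pluripotency markers reached 4046 and 4695 CPM in untreated, 3431 and 3704 in auxin-treated and 6736 and 6637 in wild-type libraries. Of these, 7 of 10 were called higher in wild-type than in untreated cells and 1 lower, against 29.9% and 30.7% of all genes. The sum of 12 fibroblast markers was 852 and 754 CPM in untreated, 854 and 916 in auxin-treated and 302 and 296 in wild-type libraries, and of the 9 tested 6 were called lower in wild-type and 1, Postn, higher. The contractile genes Tagln and Acta2 held 68.2% to 73.7% of this sum in the degron libraries. Without them, a choice made after their values were seen, the other 10 summed to 224 and 218 CPM in untreated, 251 and 292 in auxin-treated and 166 and 168 in wild-type libraries, and the collagen gene Col1a1 was not called (941 and 938 counts in untreated, 962 and 915 in wild-type). The defining fibroblast gene Lum was at 0 counts in 5 of 6 libraries and Dcn at no more than 4. After auxin 4 of 10 pluripotency markers were called lower (1.64% of all genes), and 1 of 10 tested fibroblast markers higher (2.56% of all genes). The extraction label of the wild-type records mentions retinas, yet 10 retinal markers summed to between 2.58 and 5.09 CPM in every library and Rcvrn and Crx were at 0 counts in all 6. The part of these markers in the chaperone values was not tested, and in bulk RNA fewer cells of a type cannot be told apart from less RNA per cell.

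The largest of the higher values in wild-type over untreated cells were those of Hsph1 and Hspd1. Hsph1 reached 157 and 155 CPM in wild-type and was 1.74-fold higher (log2 0.80 ± 0.076, 95% interval 0.63 to 0.96, adjusted p = 4.35e-06). Hspd1 reached 852 and 849 CPM and was 1.68-fold higher (log2 0.75 ± 0.058, adjusted p = 9.24e-07), while its partner Hspe1, at 422 and 424 CPM, was 1.31-fold higher (log2 0.38 ± 0.057, adjusted p = 0.000125). The 95% intervals of Hspd1 (0.62 to 0.88) and Hspe1 (0.26 to 0.51) did not overlap. The difference between these 2 genes was not tested. Hspa8 was 1.40-fold higher in wild-type (log2 0.48 ± 0.064, adjusted p = 5.85e-05).

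Dnajb1 reached 84.3 and 89.2 CPM in wild-type and was 1.31-fold higher (log2 0.38 ± 0.070, adjusted p = 0.000586). Tecr, an enoyl-CoA reductase gene 222 bases from Dnajb1, was 1.30-fold higher (log2 0.37, adjusted p = 0.000924). Hsp90aa1, at 5754 and 5683 CPM in wild-type, and Hsp90ab1, at 5959 and 5864 CPM, were 1.27-fold and 1.24-fold higher (adjusted p = 0.00131 and 0.00351). Both HSP90 calls were lost without wild-type replicate 1 (adjusted p = 0.13 and 0.185) and without wild-type replicate 2 (0.118 and 0.162), with log2 fold changes between 0.31 and 0.36. Hspb1 was at 325 and 324 CPM in wild-type, within the untreated range (log2 -0.03, 95% interval -0.18 to 0.11, adjusted p = 0.677). It was called lower without untreated replicate 2 (log2 -0.12, adjusted p = 0.0203) and had a log2 fold change of 0.05 without untreated replicate 1. All directions given for these genes as higher in wild-type turned under mitochondrial scaling, along with the median of all genes.

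The inducible HSP70 copies behaved unequally in this comparison. Hspa1a was lower in wild-type, at 0.412 of the untreated level (log2 -1.28 ± 0.28, 95% interval -1.90 to -0.66, adjusted p = 0.00219, edgeR), under every scaling. Hspa1b was not called (log2 0.15 ± 0.17, 95% interval -0.23 to 0.53, adjusted p = 0.465), except lower with mitochondrial scaling. Summed counts of the pair gave log2 -0.32 (adjusted p = 0.115), and -0.52 (adjusted p = 0.0118) without untreated replicate 2. Hspa1a made up 48.4% and 39.0% of the counts of the pair in untreated cells, 48.1% and 42.6% after auxin, and 23.4% and 22.2% in wild-type. The exact 95% binomial intervals of the wild-type shares (16.7% to 31.3% and 16.1% to 29.4%) lay below those of the untreated shares (41.6% to 55.2% and 31.5% to 46.9%). These intervals cover counting error only. The division of shared reads between the copies, and the overlap of Gm20481 with Hspa1a, limit what the split says of either gene.

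**Figure D3:**
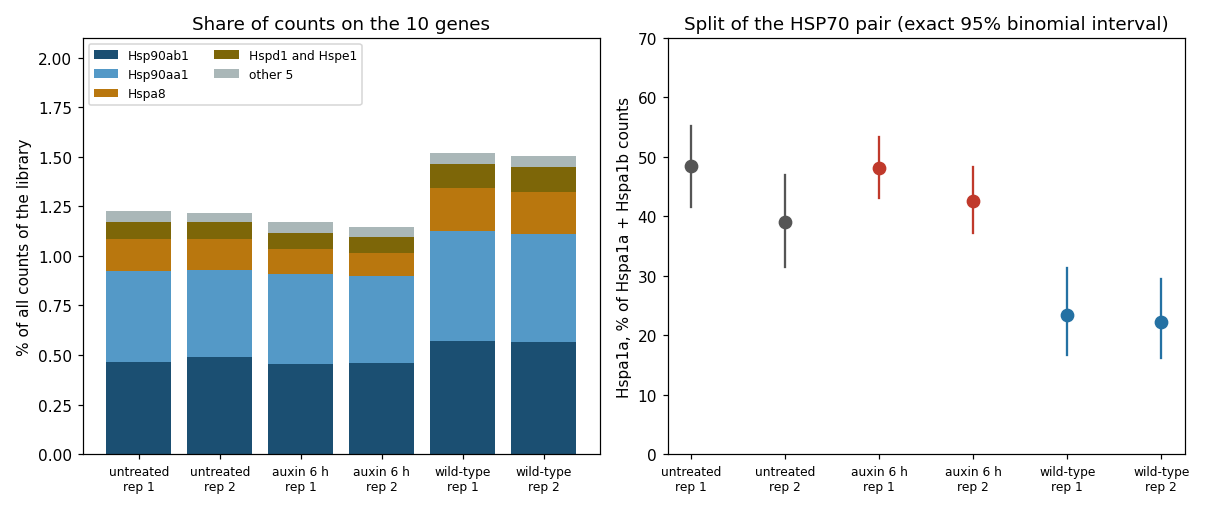
Left, percent of all counts of each library held by the 10 genes, stacked by gene, with the wild-type bars at 1.503% and 1.52% above the other 4. Right, Hspa1a as a percent of the summed Hspa1a and Hspa1b counts of each library, with exact 95% binomial intervals, at 22.2% and 23.4% in wild-type and at 39.0% to 48.4% elsewhere.

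**Figure D4:**
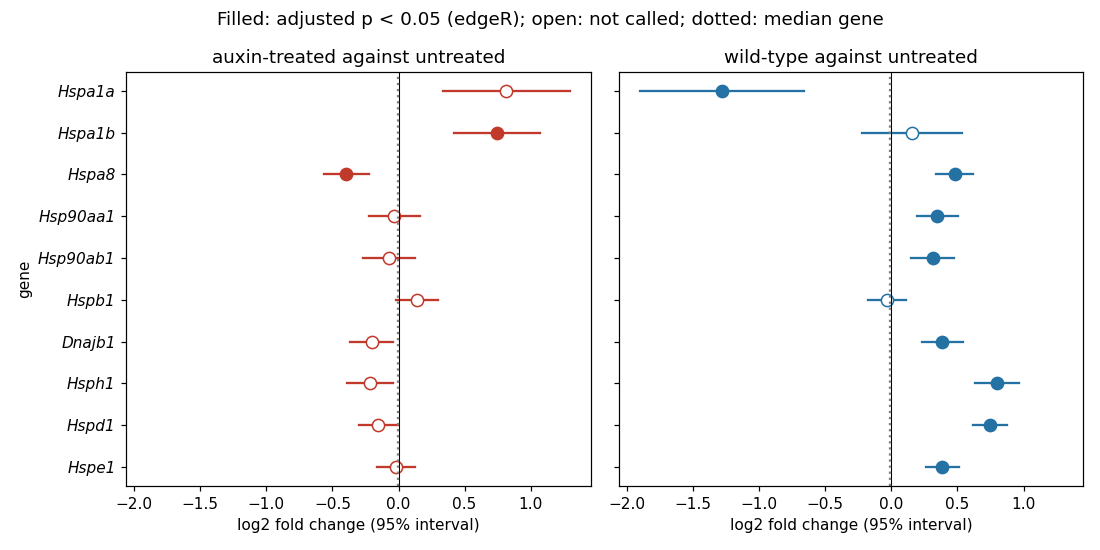
Log2 fold change of the 10 genes with 95% intervals in auxin-treated (left) and wild-type (right) over untreated cells, filled where the edgeR adjusted p was under 0.05. A dotted line gives the median gene. Hspa1b and Hspa8 are filled on the left and 8 genes on the right, where 7 lie above 0 and Hspa1a below, and under mitochondrial scaling these 7 turned to below 0 with the median gene.

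Auxin-treated against wild-type cells was compared as well. Of all genes 69.9% were called (11320 of 16202), and all 10 chaperone genes were, with Hspa1a, Hspa1b and Hspb1 higher and the other 7 lower in auxin-treated cells. The 3 comparisons share libraries with each other, so they are not independent. Hspa1a was 4.22-fold higher (log2 2.08 ± 0.20, adjusted p = 2.41e-08) and Hspa1b 1.49-fold higher (log2 0.58 ± 0.14, adjusted p = 0.0012). Hsph1 was at 0.49 of the wild-type level (log2 -1.03, adjusted p = 1.56e-12), Hspd1 at 0.53 and Hspa8 at 0.539. Hsp90aa1, Hsp90ab1, Hspe1 and Dnajb1 were at 0.658 to 0.759 of it. Hspb1 was 1.12-fold higher (log2 0.16, adjusted p = 0.000986) and lost its call without either wild-type library (adjusted p = 0.0523 and 0.0524). With mitochondrial scaling the median gene was at 1.96 and all 10 genes were higher, and relative to that median 3 stood above and 7 below, as under the other scalings.

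The transcription factors that act on heat shock elements were also measured. Hsf1 had 54.3 and 53.9 CPM in untreated, 49.7 and 60.0 CPM in auxin-treated and 52.2 and 54.6 CPM in wild-type cells, with all groups overlapping (adjusted p = 0.863 for auxin and 0.758 for wild-type over untreated). Hsf2 had 46.1 and 41.7 CPM in untreated, 38.3 and 33.4 CPM in auxin-treated and 49.8 and 54.7 CPM in wild-type cells. It was not called after auxin (log2 -0.27, adjusted p = 0.126) and was higher in wild-type (log2 0.24, adjusted p = 0.0228), though not under DESeq2 or with scaling to library totals, and lower with mitochondrial scaling. HSF1 is controlled mainly at the protein level, which mRNA does not show.

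Around the 10 genes, 11 lists with 155 other chaperone and stress genes were followed, some of which belong to more than 1 list. After auxin 4 of the 150 tested were called, 2 higher and 2 lower, or 2.67% against 4.2% of all genes, with a median log2 fold change of -0.01. The genes called higher were Gadd45b, a stress-induced growth arrest gene (log2 0.52, adjusted p = 0.00776), and the small heat shock protein gene Hspb6 (log2 0.54, adjusted p = 0.0224). Those called lower were Hmox1, encoding heme oxygenase (log2 -0.32, adjusted p = 0.0189), and Dnajc27 (log2 -0.45, adjusted p = 0.0415). With mitochondrial scaling 0 of the 4 calls held, and under DESeq2 those of Hspb6 and Dnajc27 were lost. In 8 of the 11 lists no gene was called, among them all 23 other HSP90 proteins and HSP90 co-chaperones, all 22 genes of ER folding and the unfolded protein response and all 14 TRiC and prefoldin subunits. The smallest p in those 8 lists belonged to Dnajb4 (adjusted p = 0.0763), Dnajb9 (0.0859), Hsf2bp (0.0887), Grpel2 (0.0624, in 2 lists), Hspa1l (0.062), Fkbp5 (0.116) and Cct6b (0.16).

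In wild-type against untreated cells, 45 of 147 tested list genes were higher and 44 lower, or 60.5% called against 60.6% of all genes. Of all genes 29.9% were called higher and 30.7% lower. Of the other HSP90 proteins and HSP90 co-chaperones, 14 of 23 were higher and 3 lower, with a median log2 fold change of 0.38. These included Hsp90b1, the HSP90 of the ER (0.92), Ruvbl2, an ATPase of the R2TP co-chaperone complex (0.79), Tomm34 (1.03), the immunophilin Fkbp4 (0.76) and Ahsa1, which activates the HSP90 ATPase (0.66). Fkbp8 (-0.72), Pih1d1 (-0.43) and Cdc37l1 (-0.25) were lower. TRiC, the cytosolic chaperonin that folds actin and tubulin, and prefoldin had 7 of 14 subunits higher, such as Vbp1 (0.61), Pfdn2 (0.49) and Cct7 (0.48), and 1 lower, Pfdn1 (-0.35). The medians of these 2 lists lay 0.38 to 0.39 and 0.30 to 0.31 above that of all genes under each of 5 scalings, although with mitochondrial scaling every tested gene of either list was called lower.

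Of 9 other small heat shock proteins only 5 had enough counts to be tested, and these 5 were called lower in wild-type, with a median of -0.86. They included Cryab, the lens protein αB-crystallin (-1.94), Hspb8 (-0.96) and Hspb2 (-0.86). Hspb1, the small heat shock gene of the 10, was not called. Among heat-inducible and proteotoxic stress genes 9 of 20 were lower and 6 higher, against 30.7% lower and 29.9% higher of all genes. Sqstm1, the autophagy receptor p62 (-2.55), Hmox1 (-1.95) and Serpinh1, the collagen chaperone HSP47 (-1.47), were the lowest, and Dnajb4 (1.02) was the highest. Among ER genes 9 of 22 were lower, including Ddit3, which encodes the stress factor CHOP (-3.38), and Herpud1, a component of ER-associated degradation (-1.40), and 6 were higher. The summed fibroblast markers were also lower in wild-type, with and without Tagln and Acta2, while Col1a1 and Col3a1 were not called and Postn was higher, and their part in these lists was not tested.

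The remaining lists were mixed in wild-type against untreated cells, where 29.9% of all genes were called higher and 30.7% lower. Mitochondrial folding and proteolysis had 5 of 16 genes higher, such as Phb (0.81), and 7 lower, such as Hspa9, the mitochondrial HSP70 that works with HSP60 (-0.62). DNAJA and DNAJB co-chaperones had 3 of 14 higher, including Dnaja1 (0.60), and 5 lower, and DNAJC co-chaperones 5 of 26 higher, led by the clathrin-uncoating factor Dnajc6 (1.82), and 6 lower, led by Dnajc3 (-0.81). HSP70 exchange factors and BAG proteins had 5 of 12 higher, such as Bag4 (0.76), and 2 lower. Other HSP70 and HSP110 proteins had 1 of 10 higher, Hspa2 (1.29), and 2 lower. Heat shock transcription factors and regulators had Hsf2 higher and Hsbp1, an inhibitor of HSF1, lower (-0.86) of 6 tested. With mitochondrial scaling no gene of any list was called higher in wild-type.

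**Figure D5:**
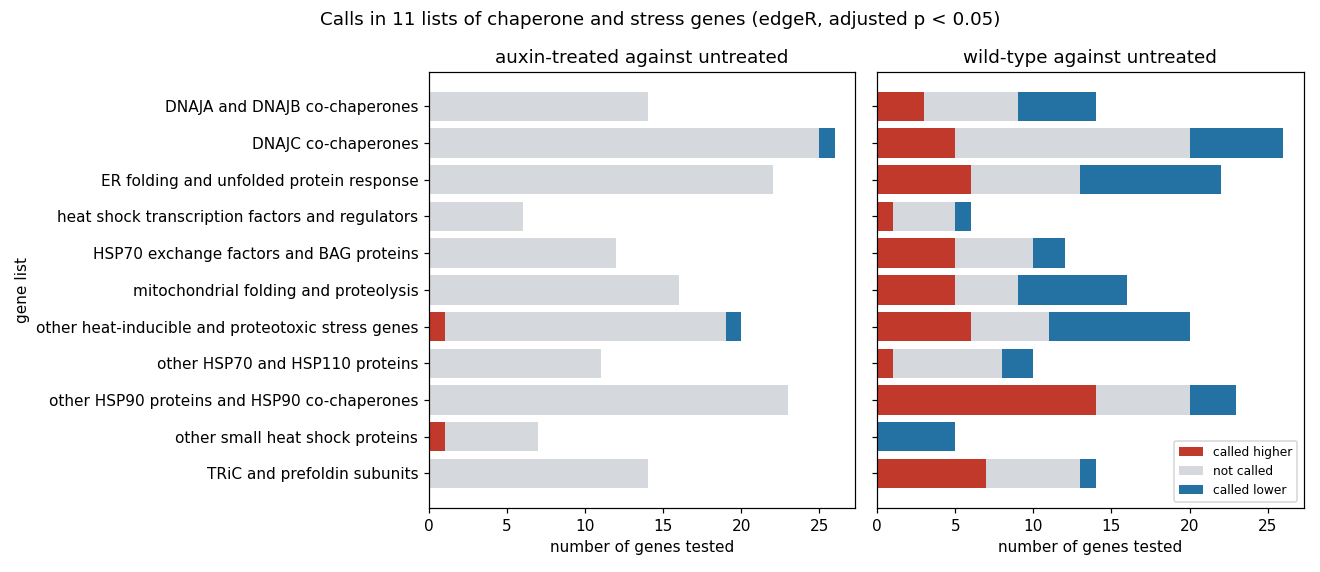
Number of genes called higher, not called and called lower (edgeR, adjusted p under 0.05) in 11 lists of chaperone and stress genes, for auxin-treated (left) and wild-type (right) over untreated cells. The left side holds 4 calls, and on the right the bars for HSP90 co-chaperones and TRiC are mostly red or grey and that for small heat shock proteins entirely blue; with mitochondrial scaling no bar on the right would hold red.

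Over the 6 libraries, the 10 genes were not alike in pattern. As a description, centred log2 CPM profiles were compared by their root mean square distance over the 6 libraries. The libraries fall in 3 groups that differ in treatment, and those of a group share it, so they are not independent. Among the 10 the distance was smallest between Hspe1 and Hsp90aa1 (0.0217). It was 0.0425 between Hspe1 and Hsp90ab1 and 0.0847 between Hsph1 and Hspd1. The member nearest to Hspa1a was Hspa1b, at 0.627. Among 10960 other genes, those nearest were Ptges3, the HSP90 co-chaperone p23, for Hspd1 (0.0102), Pml for Hsph1 (0.0228), Ppp2r2a for Hspa8 (0.0291), Api5 for Hsp90aa1 (0.00595), Ppp4c for Hsp90ab1 (0.0137) and Grsf1 for Hspe1 (0.00754). Those nearest to Dnajb1, Hspb1, Hspa1b and Hspa1a were Lgalsl (0.0196), Wnk1 (0.0193), Pik3r3 (0.0676) and Msln (0.119).

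Genes within 5 kb were compared as neighbours. 1110038B12Rik, near Hspa1b, was lower after auxin (log2 -0.34, adjusted p = 0.022), opposite in sign to Hspa1b. Nfkbie and Slc35b2, near Hsp90ab1, were not called in any comparison, and Tecr was not called after auxin (adjusted p = 0.933). Wdr95, near Hsph1, had 6 to 13 counts per library and was not called. Gm10501 and Gm8696 had at most 11 counts in any library and Gm25744 had 0, and they were not tested.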

How the data were processed

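PolyA RNA-seq was compared in 6 mESC libraries, 2 each of untreated, auxin-treated and wild-type cells. The authors aligned reads with HISAT2 2.1.0 to mm10. They deposited raw counts per GENCODE gene in 2 tables, one for degron and one for wild-type libraries. Their methods name Salmon for generating counts and HTSeq for quantifying genes. The annotation release and strand setting are not given in the sources used here. Another 2 columns matched no sample and were not used. Gene positions, exonic lengths and shared stretches were taken from GENCODE vM21 on mm10.

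The 2 tables were joined by gene ID. Counts were tested with edgeR 4.0.16 (R 4.3.3), using TMM scaling, filterByExpr with a minimum count of 10, and the quasi-likelihood F test on the 4 libraries of each comparison. P-values were adjusted by the Benjamini-Hochberg method over all genes tested. Standard errors are the log2 fold change divided by the root of F. CPM and RPKM used 1 TMM scaling over all 6 libraries, and totals were 14094022 to 15358714. Shares carry exact binomial intervals. DESeq2 1.42.0 and other filters, scalings and left-out libraries were alternatives. The code was tested on simulated data.

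The genes and lists were chosen with earlier results of these data known. Genes named are the 10 chaperone genes, Polr2a, Hsf1, Hsf2, up to 3 higher and 3 lower called genes per list (examples are given), the gene of smallest p in a list with no call, neighbours within 5 kb and the nearest profile of each gene. Fkbp4, Ahsa1 and Dnajb4 are named from more than 1 list. Replicate numbers carried no stated pairing, and with 2 per group they were not used as pairs.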

Additional observations from a re-analysis of the deposited data

How the results depend on the processing

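After auxin, 2 of the 10 genes were called in the fit reported, 1 with DESeq2, 1 with mitochondrial scaling, 0 without a filter and 0 when an absolute log2 fold change over 1 was required, and 0 to 6 when each library was left out. Genes called overall were 677 as reported, 290 with DESeq2, 219 with mitochondrial scaling, 55 without a filter, 432 with at least 10 counts in every library, 1235 with all 3 groups in 1 fit, 247 with an absolute log2 fold change over 1, and 179 to 2724 when each library was left out. With all 3 groups in 1 fit 3 of the 10 genes were called. With a replicate block, 4 of the 10 genes and 1930 genes overall were called, with Hspa1a (log2 0.83, adjusted p = 0.000173) and Hsph1 (log2 -0.21, adjusted p = 0.0255) added; same-numbered libraries correlated at 0.11 in their deviations from the group means, and no source says that the numbers pair the libraries. Wild-type against untreated gave 8 of 10 as reported, 1 with an absolute log2 fold change over 1 and 6 to 9 when each library was left out, and over all genes 9555, 15308 with mitochondrial scaling, 2861 with an absolute log2 fold change over 1 and 7532 to 9570 when each library was left out. Auxin-treated against wild-type gave 10, where 69.9% of all genes were called, and 2 with an absolute log2 fold change over 1. The share of all genes over that threshold was not taken here, so those 2 have no background beside them.

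The summed Hspa1a and Hspa1b log2 fold change after auxin was 0.78, 0.60 with mitochondrial scaling, 0.76 without a filter and 0.58 to 1.00 when each library was left out. In wild-type over untreated it was -0.32, -2.43 with mitochondrial scaling and -0.52 to -0.094 when each library was left out, and in auxin-treated over wild-type 0.97 to 1.16 when each library was left out. The share of counts on the 10 genes in wild-type was 1.54% when mitochondrial mRNAs were left out of the total.

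Directions turned only with mitochondrial scaling, except for Hspb1 in wild-type over untreated, at 0.049 without untreated replicate 1 and -0.115 without untreated replicate 2. On that scaling Hspb1 was at -0.037 after auxin. In wild-type over untreated, Hspa1b was at -1.94, Hspa8 -1.62, Hsp90aa1 -1.75, Hsp90ab1 -1.78, Dnajb1 -1.71, Hsph1 -1.31, Hspd1 -1.35 and Hspe1 -1.71. In auxin-treated over wild-type, Hspa8 was at 1.06, Hsp90aa1 1.55, Hsp90ab1 1.54, Dnajb1 1.34, Hsph1 0.92, Hspd1 1.03 and Hspe1 1.52. The median of all genes moved to -0.17, -2.10 and 1.96 in these comparisons, and the cause was not tested. Depth limits Hspa1a, Hspa1b and Hspa1l, which had 2 to 196 counts per library.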
